A study of Mus musculus with 6 samples.

Results

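The genes described are 9 of haem synthesis and breakdown, Alad, Alas1, Uros, Urod, Cpox, Ppox, Fech, Hmox1 and Hmox2, chosen by symbol for their place in the pathway from a table of 30510 features, with 1 row for each gene. They were measured in total RNA of mouse retina, in 3 libraries of DBA/2J mice (D2) and 3 of C57BL/6J mice (B6). D2 is an inbred strain that develops a pigmentary glaucoma with age and is known to carry a duplication at Alad, and B6 is the strain of the mouse reference sequence. All mice are labelled wild type and aged 60 to 100 postnatal days, no treatment is named, and retinas of both eyes were taken between 10 am and noon. RNA integrity numbers were 9.1 to 9.5. Whether each library was made from a different mouse is not stated, and the p-values therefore rest on a spread between libraries that may be technical.

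Haem is built from glycine and succinyl-CoA in a chain of enzymes that begins and ends in the mitochondrion and passes through the cytosol. Alas1 makes 5-aminolevulinic acid and is the rate-limiting step outside red blood cells. Alad joins molecules of 5-aminolevulinic acid to porphobilinogen and is a known target of lead. Uros closes the ring of uroporphyrinogen, Urod and Cpox trim its side chains, Ppox oxidises the ring and Fech inserts the iron. Haem oxygenases open the ring again: Hmox1 is the stress-inducible form and Hmox2 the constitutive form of neural tissue. In the retina, haem serves the cytochromes of the respiratory chain and soluble guanylate cyclase, among others.

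Total counts were 29417002 to 34478751 per D2 library and 31305777 to 43719666 per B6 library. Levels are CPM, the counts of a gene relative to the library total after scaling by TMM factors, and log2 fold changes are D2 minus B6 with their standard error. The 5 rod markers Gnat1, Pde6a, Pde6b, Cnga1 and Nrl summed to 15500 to 16300 CPM in D2 and 16300 to 17200 CPM in B6, so the libraries carried the transcripts of retina. Markers of neighbouring tissues varied between libraries: those of the retinal pigment epithelium summed to 45.8 to 104 CPM in D2 and 62.8 to 138 CPM in B6, and those of lens to 4.58 to 12.6 CPM in D2 and 2.29 to 29.6 CPM in B6. None of 8 pigment epithelium and 5 tested lens markers passed by edgeR or by DESeq2 (unadjusted p under 0.05 in 1 and 2, all lower), while 4 lens markers were lower with the replicate block, with no filter on low counts or without B6 replicate 1. Pigment epithelium markers were lower in 3 cases without D2 replicate 2, in 2 without D2 replicate 1, and in 1 with the replicate block, with no filter or without B6 replicate 1. Of 7 Müller glia markers 1 was higher and 2 were lower, and of 5 endothelial markers 1 was higher and 1 was lower. Over all tested genes 14.5% were higher and 15.3% lower. The endothelial count of higher markers was 0 without B6 replicate 2 or D2 replicate 3, and that of lower markers was 0 by DESeq2 or without B6 replicate 3.

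Promoter windows, 250 bases before to 50 after a transcript start, were taken from RefSeq on GRCm38.p6 and are shown for the members past the test and for Hdhd3 and Bspry, the neighbours of Alad that differ most. A window was matched by symbol for 7 of the 9 members, and not for Fech and Hmox1. Alas1 had 2 windows, of which only the upstream one is shown. The mouse Alad gene is known to use alternative starts, a housekeeping and an erythroid form. RefSeq gave 2 starts that lay 154 bases apart, with windows that share 146 bases. Whether either of them is the erythroid start was not determined. Capitals mark the GC box GGGCGG, the box CCAAT, the E-box CACGTG, the TATA box TATAAA, the erythroid GATA box AGATAA, the NRF1 site and the core of the antioxidant response element TGACNNNGC, each searched on both strands, where motifs may overlap.
Alad, the upstream start, chr4:62520014-62520313, minus strand: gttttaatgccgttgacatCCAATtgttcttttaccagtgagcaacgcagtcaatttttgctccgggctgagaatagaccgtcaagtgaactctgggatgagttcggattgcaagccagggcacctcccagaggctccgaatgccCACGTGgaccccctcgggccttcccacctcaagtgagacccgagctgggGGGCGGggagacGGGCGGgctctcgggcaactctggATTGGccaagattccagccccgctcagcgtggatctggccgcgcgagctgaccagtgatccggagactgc
Alad, the downstream start, chr4:62519860-62520159, minus strand: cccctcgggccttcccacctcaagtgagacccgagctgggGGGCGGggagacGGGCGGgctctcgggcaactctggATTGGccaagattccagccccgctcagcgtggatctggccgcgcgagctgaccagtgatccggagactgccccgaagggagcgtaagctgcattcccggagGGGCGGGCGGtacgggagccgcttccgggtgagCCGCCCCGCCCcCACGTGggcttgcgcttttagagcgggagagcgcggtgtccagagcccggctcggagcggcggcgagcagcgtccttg
Hdhd3, chr4:62502151-62502450, minus strand: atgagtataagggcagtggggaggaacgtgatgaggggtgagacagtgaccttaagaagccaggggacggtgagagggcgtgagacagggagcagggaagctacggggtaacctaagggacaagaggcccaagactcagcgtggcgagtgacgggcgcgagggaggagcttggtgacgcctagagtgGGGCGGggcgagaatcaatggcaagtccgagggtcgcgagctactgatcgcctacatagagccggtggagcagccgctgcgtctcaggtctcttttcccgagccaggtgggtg
Bspry, chr4:62479812-62480111, plus strand: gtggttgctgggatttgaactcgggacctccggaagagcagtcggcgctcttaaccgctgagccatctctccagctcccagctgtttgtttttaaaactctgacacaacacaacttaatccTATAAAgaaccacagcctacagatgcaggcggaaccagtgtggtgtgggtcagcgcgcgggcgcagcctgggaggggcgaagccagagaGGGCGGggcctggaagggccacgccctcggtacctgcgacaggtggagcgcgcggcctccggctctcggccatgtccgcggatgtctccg
Alas1, the upstream start, chr9:106247905-106248204, minus strand: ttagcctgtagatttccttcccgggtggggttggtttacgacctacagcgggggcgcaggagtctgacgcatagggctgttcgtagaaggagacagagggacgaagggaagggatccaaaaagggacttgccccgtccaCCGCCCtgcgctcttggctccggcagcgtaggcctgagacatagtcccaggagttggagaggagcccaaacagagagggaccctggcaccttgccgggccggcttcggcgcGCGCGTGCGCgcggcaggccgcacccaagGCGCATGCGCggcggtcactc
Ppox, chr1:171281137-171281436, minus strand: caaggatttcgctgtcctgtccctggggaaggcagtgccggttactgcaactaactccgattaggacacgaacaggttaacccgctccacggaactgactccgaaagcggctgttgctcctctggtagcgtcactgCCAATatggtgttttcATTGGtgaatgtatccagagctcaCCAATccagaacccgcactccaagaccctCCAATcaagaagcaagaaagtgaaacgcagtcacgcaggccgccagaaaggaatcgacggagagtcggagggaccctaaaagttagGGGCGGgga

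Both Alad windows held GC boxes, at 2 places in the upstream and 6 in the downstream window, and both held an E-box. The 2 GC boxes of the upstream window lie in the shared bases and are counted again in the downstream window. The E-boxes are different sites. Of all 32851 windows of this length, 35.7% held a GC box and 7.15% an E-box. Neither Alad window held the GATA letters, which stood in 11.2% of windows. The Hdhd3 window held 1 GC box, and the Bspry window 1 GC box and 1 TATA box. In the Alas1 window shown, the NRF1 letters stood at 2 places, against 4.60% of all windows with the motif. They are the site of a factor known to drive genes of mitochondrial function. The downstream Alas1 window, not shown, held the same 2 sites. The upstream window also held 1 GC box, and the downstream window held 0. The Ppox window held CCAAT at 4 places, a motif found in 37.4% of windows. These matches are descriptions of the reference sequence, which is that of B6, and the counts per gene do not separate the starts.

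Transcripts of Alad were 2.72-fold as abundant in D2 as in B6, the largest difference among the 9 genes, and those of Alas1 and Ppox were higher by much less. The remaining 6 did not pass the test. In all 3 of 9 members passed the threshold of 0.05 on p after Benjamini-Hochberg adjustment over 18588 genes, in a quasi-likelihood fit by edgeR, all 3 of them higher in D2, where 29.7% of all tested genes passed in either direction and 14.5% passed as higher. At 33.3%, the members' share past the test in either direction is close to that background. None was lower, also by DESeq2 and at an unadjusted p under 0.05. The median log2 fold change was 0.01 over the members and 0.00 over all tested genes. In bulk retina a change in the number of cells of a type cannot be told apart from a change in RNA per cell. The build used, mm10, is the B6 sequence. Whether D2 reads aligned to it as well as B6 reads was not tested, for these genes or those below.

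Alad (chromosome 4, 62509169 to 62519918, minus strand, GRCm38) had 33.7, 33.1 and 30.4 CPM in the D2 libraries, against 11.2, 11.7 and 13.0 CPM in the B6 libraries. The lowest D2 library stood well above the highest B6 library. The counts behind these values were 971, 1077 and 1056 in D2 and 483, 487 and 405 in B6. Means were 32.4 ± 1.76 CPM in D2 and 12 ± 0.951 CPM in B6 (SD, n = 3 each), with a log2 fold change of 1.44 ± 0.06 (adjusted p = 1.92e-10) and a 95% interval of 2.47 to 2.98 for the fold. Of all tested genes, 239 (1.29%) were called higher by at least the fold of Alad. In the authors' deposited table, 1 of the 9 genes, Alad, was marked past the authors' cutoff for a difference. That cutoff was passed by 2358 of the 18100 genes listed there. Alad had scaled means of 9.02 in D2 and 7.96 in B6 and a false discovery rate of 2.29e-140. None of the 31-base words of Alad's annotated transcripts occurred in another gene.

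**Figure D1:**
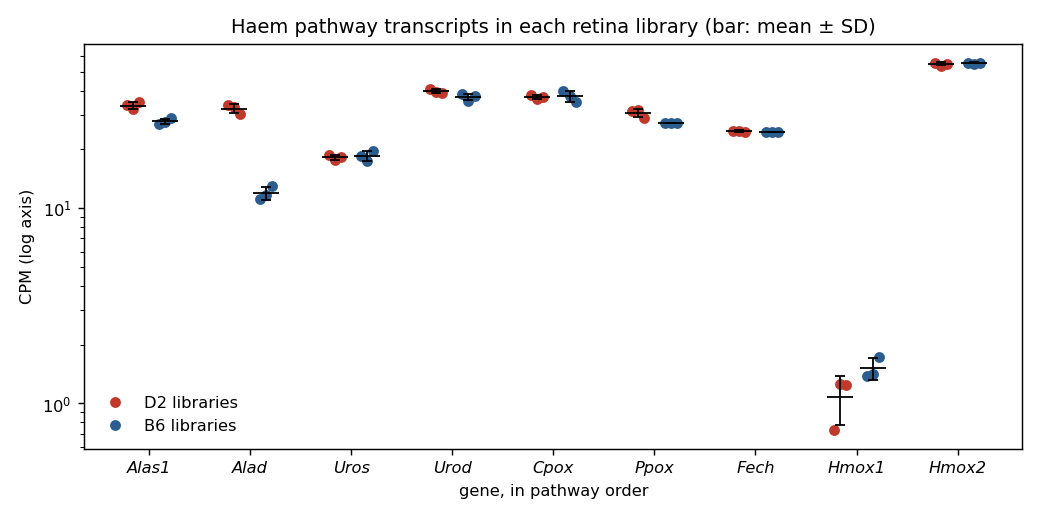
CPM on a log axis of the 9 members, in pathway order, in each of 3 D2 and 3 B6 retina libraries, with the mean and SD as a bar. Alad stands at 30.4 to 33.7 CPM in D2 and 11.2 to 13.0 CPM in B6, while Fech and Hmox2 lie at nearly the same height in both strains.

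Alas1 (chromosome 9, 106233455 to 106248654, minus strand) had 33.7, 32.1 and 34.8 CPM in D2 and 27.1, 27.5 and 28.9 CPM in B6. All D2 libraries lay above all B6 libraries. The fold was 1.21, with an interval of 1.12 to 1.29 (log2 fold change 0.27 ± 0.05, adjusted p = 0.000497). Alas1 overlaps 4930500F10Rik on the opposite strand over 7.53% of its exon bases, and the antisense gene also passed as higher (fold 1.62), with 4.97 ± 0.547 CPM in D2 and 3.07 ± 0.223 CPM in B6 (SD, n = 3 each). Without a stated strand setting for the counts, reads from the overlap could not be assigned to 1 of these genes.

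Ppox (chromosome 1, 171275990 to 171281186, minus strand), the penultimate enzyme, had 31.4, 32.0 and 29.1 CPM in D2 and 27.2 CPM in each B6 library. Its fold of 1.13 (interval 1.05 to 1.21) passed with an adjusted p of 0.0103. The call was lost without D2 replicate 2 (adjusted p = 0.0528, range over the alternatives 0.0061 to 0.0528). Ppox overlaps B4galt3 on the opposite strand over 17.5% of its exon bases, and B4galt3 was 1.13-fold lower, at 31 ± 1.02 CPM in D2 and 35.1 ± 1.02 CPM in B6 (SD, n = 3 each). That difference had an adjusted p of 0.0078, and 0.0543 without D2 replicate 3.

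The remaining synthesis enzymes differed little between the strains. Urod (chromosome 4, 116989965 to 116994413, minus strand), the cytosolic decarboxylase, had 39.0 to 40.7 CPM in D2 and 35.6 to 38.3 CPM in B6, without overlap, and did not pass (fold 1.07, interval 1.0 to 1.14, adjusted p = 0.123). Uros (chromosome 7, 133686243 to 133710072, minus strand), which closes the ring, had 17.7 to 18.7 CPM in D2 and 17.4 to 19.6 CPM in B6 (interval of the fold 0.904 to 1.07). Cpox (chromosome 16, 58670292 to 58717636, plus strand), an enzyme of the mitochondrial intermembrane space, had 36.4 to 37.9 CPM in D2 and 34.9 to 39.7 CPM in B6 (interval 0.920 to 1.07). For Uros and Cpox the D2 libraries fell within the B6 range. Fech (chromosome 18, 64452914 to 64490251, minus strand), the ferrochelatase that ends the chain, had 24.7 to 25 CPM in D2 and 24.5 to 24.7 CPM in B6, with an interval of the fold of 0.944 to 1.08. The intervals of Uros, Cpox and Fech leave room for differences of several percent either way. In the authors' deposited table Urod had a false discovery rate of 0.0469 with scaled means of 9.23 in D2 and 9.17 in B6, and 5 of the 9 genes lay under 0.05, as did 40.9% of the 18100 genes listed there.

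Along the chain from Alas1 to Fech, the members past the test were thus Alas1, Alad and Ppox, and those that did not pass were Uros, Urod, Cpox and Fech. Alas2, the erythroid form of the first enzyme, had 4.06, 5.14 and 3.91 CPM in D2 and 2.89, 3.42 and 3.79 CPM in B6 and did not pass (fold 1.31, adjusted p = 0.0505), although it did in 5 of 14 alternatives, by limma-voom, with no filter, without Rn18s, Lars2, Rpph1 and the mitochondrial genes, and without B6 replicate 3 or D2 replicate 3.

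**Figure D2:**
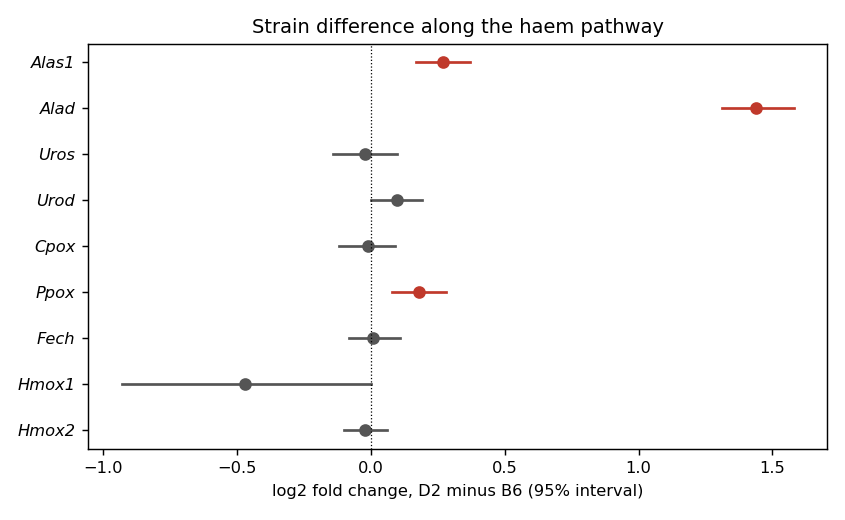
Log2 fold change of D2 minus B6 with its 95% interval for the 9 members, in pathway order, in red where the gene passed the test as higher in D2 and grey where it did not pass. Alad lies at 1.44, Alas1 at 0.27 and Ppox at 0.18, and the interval of Hmox1 is the widest.

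Globin transcripts of red blood cells were higher in D2, as Alad was. Of 6 tested erythroid markers, Alas2 among them, 4 were higher in D2 and 0 lower, all 4 of them globins, where 14.5% of all tested genes were higher. The red cell marker Epb42, which is not a globin, had a log2 fold change of -0.01 and did not pass (adjusted p = 0.977). By DESeq2 1 marker was higher, and without D2 replicate 1 or B6 replicate 1 the number was 3. The 8 listed markers with a row summed to 128, 142 and 260 CPM at the lowest, middle and highest D2 library, against 72.3, 97.7 and 112 CPM in B6. The membrane marker Slc4a1 had 0 to 3 counts in every library. Hba-a1 shares 75.5% and Hba-a2 92.6% of its words with other genes, and Hbb-bs 54.4% and Hbb-bt 59.4%. Reads within each pair cannot be told apart well. D2 replicate 1 held the highest Hba-a1 level, at 81.3 CPM. The other D2 libraries had 41.5 and 39.7 CPM, still above the 19.2 to 29.5 CPM of B6. Without D2 replicate 1 the log2 fold change was 1.41 for Alad and 0.27 for Alas1. The part of blood in the differences of Alad and Alas1 was not tested.

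Hmox1 (chromosome 8, 75093621 to 75100589, plus strand) was the least abundant member, with 21, 41 and 43 counts in D2 and 60, 59 and 54 counts in B6. These counts correspond to 0.728, 1.26 and 1.24 CPM in D2 and 1.39, 1.42 and 1.74 CPM in B6. All D2 libraries lay below all B6 libraries, and D2 replicate 1 was the lowest. The gene did not pass the test (log2 fold change -0.47 ± 0.22, fold 0.724 with an interval of 0.523 to 1.0, adjusted p = 0.129), and without D2 replicate 1 its log2 fold change was -0.27. The authors' deposited table gave it a false discovery rate of 0.0475, with scaled means of 5.49 in D2 and 5.78 in B6. Of 10 markers of microglia, in which Hmox1 can be induced, 5 were lower in D2 and 0 higher (also 0 higher by DESeq2 and at an unadjusted p under 0.05), where 15.3% of all tested genes were lower. The number of lower markers was 3 by DESeq2 and without B6 replicate 1, B6 replicate 2 or D2 replicate 2. The markers summed to 53.0 to 55.6 CPM in D2 and 68.5 to 74.5 CPM in B6, and their part in the Hmox1 values was not tested.

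Hmox2 (chromosome 16, 4726361 to 4766742, plus strand) had 53.8 to 55.7 CPM in D2 and 55.1 to 55.7 CPM in B6, with an interval of the fold of 0.935 to 1.04. Its exons overlap those of Cdip1 on the opposite strand over 40.2% of the exon bases of Hmox2, and Cdip1 had 136 ± 4.19 CPM in D2 and 133 ± 0.564 CPM in B6 (SD, n = 3 each), so the separate level of Hmox2 is uncertain. Libraries of D2 and B6 did not overlap in 5 of the 9 members, Alad, Alas1, Urod, Ppox and Hmox1, where this held for 42.3% of all tested genes.

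Set side by side per length, as CPM per kilobase of annotated exon, the members spanned a wide range. In D2 the order was Hmox2 at 24.7, Alad at 17.3, Urod at 15.3, Ppox at 6.83, Cpox at 5.57, Alas1 at 5.43, Uros at 5.09, Fech at 1.79 and Hmox1 at 0.614 CPM per kilobase. In B6 it was Hmox2 at 25, Urod at 14.3, Alad at 6.40, Ppox at 6.03, Cpox at 5.61, Uros at 5.17, Alas1 at 4.51, Fech at 1.78 and Hmox1 at 0.865 CPM per kilobase. Alad thus stood above Urod in every D2 library (16.2 to 18.0 for Alad and 15.1 to 15.7 for Urod) and below it in every B6 library (5.97 to 6.96 for Alad and 13.7 to 14.8 for Urod). Levels of Cpox and Alas1 overlapped in D2, as did those of Alas1 and Uros, and in B6 those of Alad and Ppox and those of Cpox and Uros overlapped. Lengths are the union of all annotated exons, 13838 bases for Fech and 1751 for Hmox1, so a gene whose retinal transcripts use few of these exons is placed too low.

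The region of Alad on chromosome 4 is known to vary in copy number between mouse strains. Copy number was not measured here. Of 29 other genes annotated within 500 kb, 20 had a row of counts and 14 were high enough to be read from the same test. Bspry, Hdhd3 and Alad lie next to each other, and all 3 were higher in D2 by more than 2.5-fold. Hdhd3 (62499008 to 62503467, minus strand), a gene of the haloacid dehalogenase-like hydrolases, lies 5.70 kb from Alad. It had 271, 336 and 329 counts in D2 and 109, 129 and 77 counts in B6, or 9.40, 10.3 and 9.47 CPM in D2 and 2.52, 3.11 and 2.48 CPM in B6. The groups were far apart, with a fold of 3.59 and an interval of 3.05 to 4.21 (adjusted p = 5.11e-09). Bspry (62480053 to 62497298, plus strand), which encodes a B-box and SPRY domain protein, lies 11.9 kb away and had 5.93, 6.73 and 6.5 CPM in D2 and 2.06, 2.14 and 2.12 CPM in B6. Its fold was 3.03, with an interval of 2.57 to 3.59 (adjusted p = 4.14e-08). Neither gene shared a 31-base word with another gene.

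Beyond these the differences were small. Pole3, a histone-fold subunit of DNA polymerase epsilon on the other side of Alad at 2.73 kb, had 16.1, 18.6 and 18.4 CPM in D2 and 14.8, 14.4 and 14.5 CPM in B6 (fold 1.21, interval 1.10 to 1.33, adjusted p = 0.00351). Wdr31, at 38.3 kb, had 35.5, 41.1 and 34.5 CPM in D2 and 33.9, 27.6 and 31.7 CPM in B6 (fold 1.19, adjusted p = 0.0167), and did not pass without B6 replicate 2 (adjusted p = 0.103) or D2 replicate 2 (0.104). Rgs3, a regulator of G-protein signalling at 39.9 kb, was 1.13-fold lower, and the call was lost without D2 replicate 1 (adjusted p = 0.0563) or D2 replicate 2 (0.055). Cdc26, an anaphase-promoting complex subunit at 101 kb, was 1.11-fold lower and lost its call in 6 of 14 alternatives, among them without B6 replicate 1 or 2 or D2 replicate 2 or 3 (adjusted p up to 0.134). Of 14 tested neighbours 4 were higher, 2 lower and 8 not past the test, with a median log2 fold change of 0.09, where 29.7% of all tested genes passed. Without D2 replicate 2 the number of neighbours past the test was 3. The nearer gene 4933430I17Rik, at 5.45 kb on the side of Pole3, had 36 to 51 counts in D2 and 43 to 56 in B6 and did not pass (interval of the fold 0.817 to 1.46). Zfp37, Slc31a2, Fkbp15, Slc31a1 and Prpf4, at 82.2 to 278 kb on the side of Hdhd3, had log2 fold changes between -0.00 and 0.10, and Zfp618, at 446 kb on the side of Pole3, had -0.08. Rnf183, a low gene at 73.9 kb, had 0.56 ± 0.30 and did not pass.

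**Figure D3:**
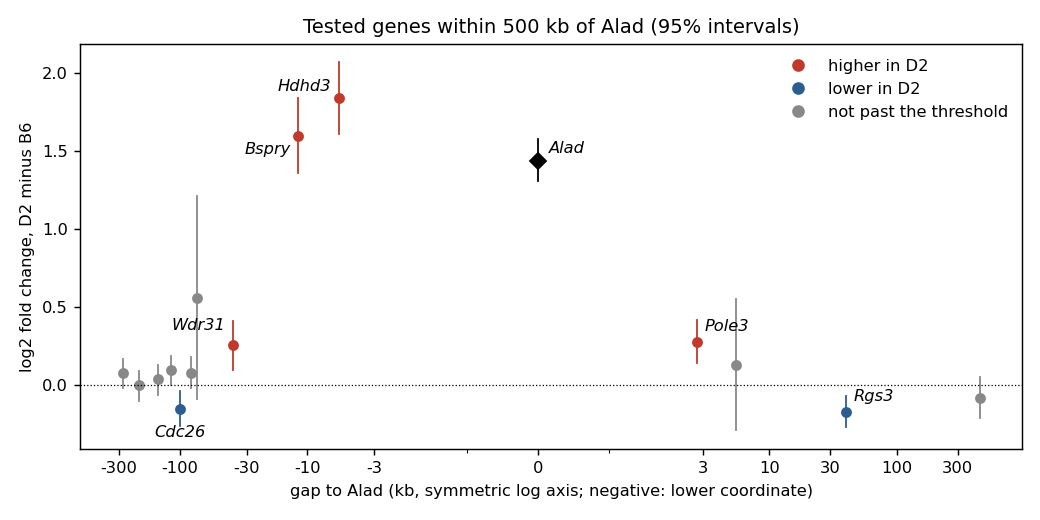
Log2 fold change of D2 minus B6 with its 95% interval for the 14 tested genes within 500 kb of Alad, against the gap to Alad in kb on a symmetric log axis, with Alad as a black diamond. Hdhd3 at 1.84, Bspry at 1.6 and Alad at 1.44 stand above Pole3 at 0.28 and Wdr31 at 0.26.

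Within a library, Alad had 3.58, 3.21 and 3.21 counts per count of Hdhd3 in D2, against 4.43, 3.78 and 5.26 in B6. All D2 ratios lay below all B6 ratios. On the log2 scale, with 0.5 added to each count, the ratio was 1.73 ± 0.09 in D2 and 2.15 ± 0.24 in B6 (SD, n = 3 each), a difference of -0.41. The exact two-sided permutation test gave p = 0.10, the smallest that 3 libraries against 3 allow. The interval of the fold of Alad (2.47 to 2.98) and that of Hdhd3 (3.05 to 4.21) did not overlap.

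The tested genes outside the set whose pattern over the 6 libraries was most like that of Alad were Cfap206, Card10 and Pla2g4e, by the root mean square difference of the centred log2 CPM (0.0658, 0.0689 and 0.0707 log2). Cfap206 (chromosome 4, 34688559 to 34730206) had 15.0, 16 and 15.1 CPM in D2 and 5.41, 6.00 and 6.01 CPM in B6. Card10 (chromosome 15, 78775138 to 78803042) had 6.22 to 6.69 CPM in D2 and 2.22 to 2.46 CPM in B6, and Pla2g4e (chromosome 2, 120166412 to 120245335) had 5.12 to 6.14 CPM in D2 and 1.81 to 2.19 CPM in B6. With 2 groups of 3 libraries, this likeness is mostly that of the strain difference.

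Beyond the members, 58 genes of haem transport, regulation, handling and use and of the Nrf2 targets, in 5 lists, were tested: 12 were higher in D2, 11 lower and 35 did not pass, with a median log2 fold change of 0.01. Over all tested genes 14.5% were higher and 15.3% lower. In the list of mitochondrial haem and porphyrin transport 5 of 10 were higher and 0 lower (median 0.07, unadjusted p under 0.05 in 5 higher and 1 lower), and by DESeq2 2 were higher and 0 lower. Clpx, a mitochondrial unfoldase that acts on aminolevulinate synthase, was 1.11-fold higher, at 89.5 ± 1.37 CPM in D2 and 80.6 ± 3.46 CPM in B6 (SD, n = 3 each). The iron importer Slc25a37 (1.14-fold) and the transporters Abcb6 (1.10-fold) and Abcb10 (1.09-fold) each lost the call in 5 of 14 alternatives, with adjusted p up to 0.137, 0.103 and 0.181. Those 5 were DESeq2 and, for Slc25a37, leaving out B6 replicate 1 or 2 or D2 replicate 1 or 2, for Abcb6 B6 replicate 1 or 2 or D2 replicate 1 or 3, and for Abcb10 B6 replicate 2 or 3 or D2 replicate 1 or 3. Abcb6 shares 52.1% of its words with other genes.

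Among 11 tested regulators and haem sensors 2 were higher and 1 lower (median 0.00), against 14.5% and 15.3% of all tested genes. Bach1, the haem-binding repressor of Hmox1, had 34.8, 37.0 and 36.3 CPM in D2 and 31.2, 33.2 and 29.3 CPM in B6 (fold 1.15, adjusted p = 0.00666). Npas2, a haem-binding clock factor, was 1.53-fold higher, at 2.37 ± 0.111 CPM in D2 and 1.54 ± 0.176 CPM in B6 (SD, n = 3 each). Eif2ak1, the haem-regulated kinase of translation, was 1.11-fold lower and lost its call in 7 of 14 alternatives, among them without B6 replicate 2 or any single D2 library (adjusted p up to 0.190). The most abundant, Nr1d2 and Nr1d1, nuclear receptors that bind haem, had 347 ± 11.5 and 84.0 ± 4.09 CPM in D2 and 325 ± 18.8 and 85.3 ± 1.31 CPM in B6 (SD, n = 3 each) and did not pass. The activator Nfe2l2 (Nrf2) had 18.3 ± 1.15 CPM in D2 and 20.5 ± 0.694 CPM in B6 (SD, n = 3 each). It did not pass (adjusted p = 0.0503), but was called lower in 6 of 14 alternatives, 5 of other scaling or filters and that without B6 replicate 1 (adjusted p 0.0414 to 0.215 over the alternatives). Gata1, the erythroid factor, was too low to be tested.

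Of 15 tested genes of breakdown and handling, 2 were higher and 3 lower (median 0.06), against 14.5% and 15.3% of all tested genes. Hebp1, a haem-binding protein, had 4.06, 3.14 and 3.77 CPM in D2 and 1.85, 1.76 and 1.87 CPM in B6, a fold of 2.00 (interval 1.62 to 2.47, adjusted p = 7.15e-05). Slc48a1, the exporter of haem from endolysosomes to the cytosol, had 44.0, 43.1 and 41.4 CPM in D2 and 50.5, 53.0 and 50.5 CPM in B6 and was 1.2-fold lower (adjusted p = 0.000216). The ferritin heavy chain Fth1 was 1.13-fold lower, at 131 ± 3.87 CPM in D2 and 148 ± 7.15 CPM in B6 (SD, n = 3 each). Lrp1, the receptor for haem bound to hemopexin, was 1.13-fold lower and lost its call without B6 replicate 3 or D2 replicate 1 or 3 (adjusted p up to 0.127). The haem exporter Flvcr1, listed under its older symbol Mfsd7b, was 1.11-fold higher and lost its call in 8 of 14 alternatives, among them without B6 replicate 1 or 3 or D2 replicate 1 or 2 (adjusted p up to 0.162). Biliverdin reductase Blvra, the enzyme after haem oxygenase, had 16.6 ± 0.707 CPM in D2 and 14.9 ± 0.752 CPM in B6 (SD, n = 3 each) and did not pass (adjusted p = 0.0697). The most abundant of the list, Pgrmc1, had 214 ± 5.53 CPM in D2 and 206 ± 6.55 CPM in B6 (SD, n = 3 each). Hp and Cd163 were too low to be tested.

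The users of haem held 2 higher and 4 lower genes of 15 (median 0.01), against 14.5% higher and 15.3% lower over all tested genes. The haem-anchoring subunit Sdhc of respiratory complex II was 1.28-fold lower (82.8, 82.1 and 82.1 CPM in D2, 109, 103 and 104 CPM in B6, adjusted p = 1.42e-06), and catalase, Cat, was 1.29-fold lower (adjusted p = 0.000212). The mitochondrial cytochrome b5 gene Cyb5b was 1.2-fold lower. Neuronal nitric oxide synthase, Nos1, was 1.33-fold higher. The subunits of soluble guanylate cyclase, the most abundant genes of this list over all 6 libraries, went opposite ways: Gucy1b1 was 1.16-fold higher, at 157 ± 4.2 CPM in D2 and 135 ± 7.75 CPM in B6, and Gucy1a1 was 1.09-fold lower, at 198 ± 6.06 CPM in D2 and 216 ± 11.2 CPM in B6 (SD, n = 3 each). Gucy1a1 lost its call without B6 replicate 1 or D2 replicate 1 or 2 (adjusted p up to 0.129).

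Of 7 further genes known to be induced by Nrf2, as Hmox1 is, 1 was higher and 3 lower (median -0.10). The number of lower genes was 1 without B6 replicate 1 or 2 or D2 replicate 1 or 2. The shares over all tested genes were 14.5% higher and 15.3% lower. The cystine transporter Slc7a11 had 30.7, 28.7 and 27.3 CPM in D2 and 15.5, 16.3 and 14.7 CPM in B6, a fold of 1.85 (adjusted p = 1.76e-08). Thioredoxin reductase Txnrd1 had 34.4, 35.2 and 36.1 CPM in D2 and 44.5, 45.2 and 44.6 CPM in B6 and was 1.27-fold lower (adjusted p = 1.23e-05). Gclm was 1.12-fold lower and lost its call without B6 replicate 1 or 2 or D2 replicate 1 or 2 (adjusted p up to 0.117). Osgin1, with 5, 3 and 12 counts in D2 and 19, 18 and 16 counts in B6, lost its call by DESeq2 and without any library other than D2 replicate 3 (adjusted p up to 0.182). The most abundant of these, Srxn1 and Gclc, had 60.4 ± 1.23 and 49.0 ± 1.76 CPM in D2 and 62.5 ± 3.22 and 47.8 ± 2.41 CPM in B6 (SD, n = 3 each) and did not pass.

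**Figure D4:**
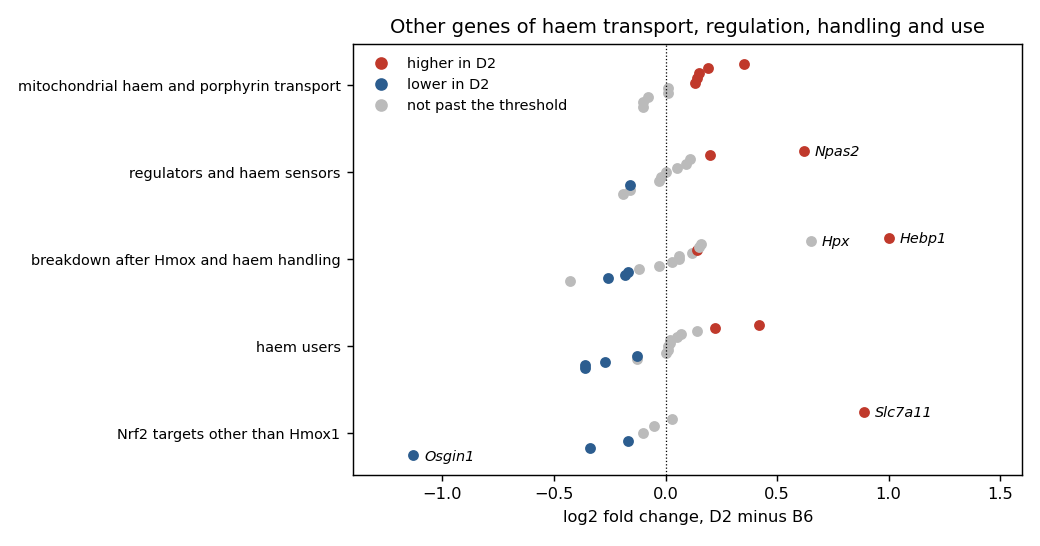
Log2 fold change of D2 minus B6 for each tested gene of the 5 lists around the members, with red for genes past the test as higher in D2, blue for lower and grey for the rest. Hebp1 at 1.0, Slc7a11 at 0.89 and Npas2 at 0.62 are the highest genes past the test.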

How the data were processed

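Retinal total RNA of 3 D2 and 3 B6 libraries was made into stranded libraries, per the labels' protocols. Per the submitters' processing notes, the tools were edgeR, FastQC, SAMtools and STAR, with the build mm10. For versions, read counter, annotation and strand setting the sources used here state nothing. A merged table of raw counts by gene symbol was deposited, and the authors added a table of expression scores (scaled strain means, mean 8.00 and SD 1.96 over genes in B6) with a false discovery rate, an adjusted p-value. Its differences run B6 minus D2.

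Columns were mapped by title. Symbols were matched to GENCODE M21 (GRCm38, the same build as mm10), with older symbols from RefSeq. Counts were filtered with filterByExpr, scaled with TMM and fitted by strain with edgeR 4.0.16 (R 4.3.3) over 18588 genes, with Benjamini-Hochberg adjustment and a threshold of 0.05. The standard error is the absolute log2 fold change over the root of F, and intervals are 95%. Alternatives were DESeq2 1.42.0, limma-voom 3.58.1, other factors and filters, the replicate block, and leaving out each library. The fit was tested on simulated data. The members and lists were chosen with earlier results of these data known. Named genes were the members, all tested neighbours within 500 kb, list genes past 0.05, the 2 most abundant of each list, and the 3 genes most like Alad. Intervals cover the spread of these libraries, and a count of 0 allows 0.0694 to 0.104 CPM (3 counts, counting error only). Some genes of these lists are counted in the totals but not reported here by name.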

Additional observations from a re-analysis of the deposited data

How the results depend on the processing

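Alad and Alas1 kept their direction and their call in all 14 alternatives (log2 fold change 1.39 to 1.5 and 0.24 to 0.30), as did Hdhd3, Bspry and Pole3. Leaving out each library in turn gave 2 to 3 members past the threshold, 2 to 3 higher and 0 lower, 3 to 6 neighbours past the threshold (3 without D2 replicate 2), and a difference of the log2 ratio of Alad to Hdhd3 of -0.53 to -0.29. Uros ranged from -0.07 to 0.02 and Cpox from -0.06 to 0.03 in these fits, and changed sign without passing. Of 33 genes past the threshold among members, neighbours and lists, 20 kept the call in every alternative run, 13 lost it in at least 1, and 0 changed sign. Scaling moved the median log2 fold change of all genes by at most 0.01. With the replicate number as a block, 5093 genes passed against 5524 without it, and 3 members passed in both fits. Same-numbered libraries correlated at 0.135, 0.0657 and -0.0296 in their deviations, and 3 of 6 libraries correlated best with their own number, so the numbers were not taken as pairs. At 21 to 60 counts per library, Hmox1 had the widest interval of the members.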
